A study of Rattus norvegicus with 6 samples.

Results

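The 10 genes described here carry the signal of thyroid-stimulating hormone (TSH) from the surface of the thyroid follicular cell to the nucleus. They were chosen by gene symbol and are 10 of the 15388 genes counted in rat thyroid. The receptor is encoded by Tshr, and the alpha subunits of the G proteins it couples to by Gnas and Gnaq. Adcy3, Adcy6 and Adcy9 encode adenylyl cyclases, which make cyclic AMP (cAMP), and Pde4d encodes a phosphodiesterase, which breaks it down. Prkaca and Prkar1a encode a catalytic and a regulatory subunit of protein kinase A, and Creb1 encodes a transcription factor that this kinase phosphorylates.

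TSH from the pituitary binds its receptor on follicular cells, and the receptor acts mainly through the stimulatory alpha subunit encoded by Gnas, which activates adenylyl cyclase. At high hormone levels the receptor also couples to the alpha subunit encoded by Gnaq, which activates phospholipase C. cAMP binds the regulatory subunits of protein kinase A and frees the catalytic subunits. In the thyroid this pathway is known for driving iodide uptake, hormone synthesis and follicular cell growth.

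Thyroid tissue came from adult Sprague-Dawley rats that were non-pregnant (NP, 3 samples) or in late pregnancy on day 18 (LP, 3 samples), counting from a plug on day 1. No treatment or genetic change is given for either group, and the labels do not say whether a sample was 1 animal or a pool. Polyadenylated RNA was sequenced, and the number of reads counted on genes ranged from 2752144 to 2965936 in NP and from 3224104 to 3449857 in LP. The 10 genes together took 0.268% to 0.289% of these reads. Levels are given as CPM, in which each count is divided by its library's total after adjustment by TMM, a method that lines the libraries up on the genes that change least. Gene lengths were not used, so levels are compared between samples and not between genes.

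Within each group, the counts of replicates 2 and 3 agreed within sampling noise (chi-square per degree of freedom 1.02 in NP and 0.995 in LP), whereas replicate 1 differed from them (3.70 to 4.11). Replicates 2 and 3 of a group were therefore averaged and counted as 1 sample in each mean ± SD, which leaves n = 2 per group, and p-values measure only the spread between these samples, which may be technical. The test itself took the 6 libraries as deposited; with replicates 2 and 3 summed into 1 sample it called 2541 genes in place of 3172, and the adjusted p of Tshr was 0.00011 in place of 3.9e-07. The labelled tissue was checked against 12 follicular cell markers, all of which were counted. Their summed level was 231900 to 250200 CPM in NP and 242100 to 258400 CPM in LP. Tg, the thyroglobulin gene, alone made up 223100 to 240900 CPM of this in NP and 233800 to 249600 CPM in LP. The sum therefore says little about the other markers of this list. Skeletal muscle markers separated the groups, with a summed level of 27.9 to 75.9 CPM in NP and 3633 to 3835 CPM in LP. Of the 8 tested, 7 were called higher in LP, beside 15.3% of all genes tested. Myh1, a fast skeletal myosin, was at 0 reads throughout NP and at 119, 105 and 109 reads in LP replicates 1, 2 and 3. Replicate 1 of each group stood apart in smooth muscle markers, at 205.1 CPM against 1213 and 1200 CPM in NP and at 842.9 CPM against 1879 and 1785 CPM in LP. Des, which skeletal muscle shares, made up 713.9 CPM of the sum in LP replicate 1 and 20.7 CPM in NP replicate 1. Fibroblast sums also set replicate 1 apart, at 1170 CPM against 2094 and 2041 CPM in NP and 1425 CPM against 2359 and 2277 CPM in LP. Acta1, of the skeletal muscle list, had 0 reads in replicate 1 of both groups and 144 to 186 reads elsewhere.

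**Figure D1:**
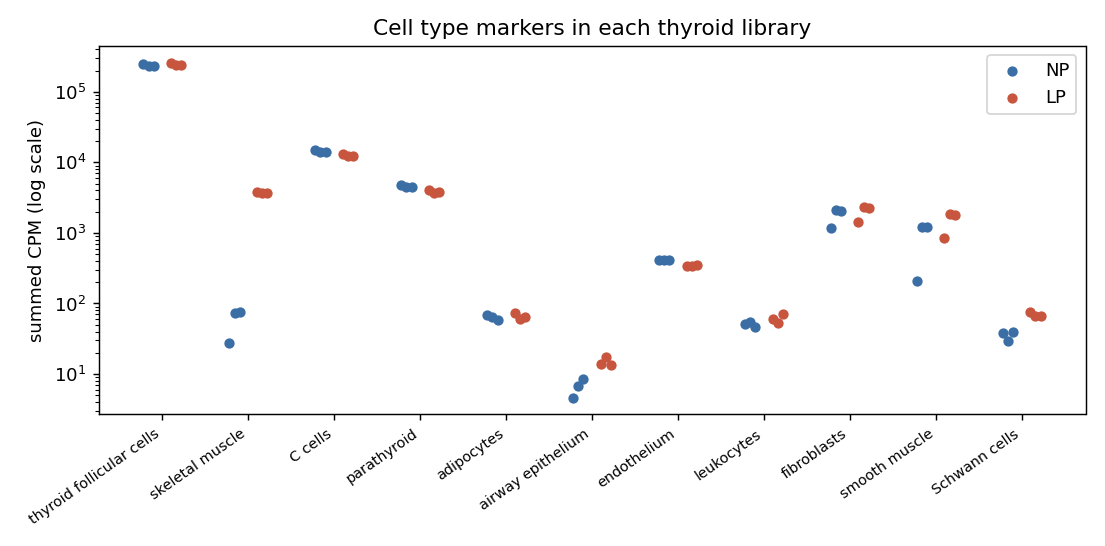
Summed CPM of each cell type marker list (log vertical axis), with 1 point for each of the 3 NP and 3 LP samples. Skeletal muscle markers lie between 27.9 and 75.9 CPM in NP and between 3633 and 3835 CPM in LP. The follicular cell sums, which are mostly Tg, overlap between the groups.

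The comparison of LP with NP used the quasi-likelihood test of edgeR, and p-values were adjusted by Benjamini-Hochberg over the 11738 genes with enough reads to test. Tshr was down-regulated in LP, and Pde4d, Prkaca and Gnas were up-regulated. The remaining 5 tested genes, Gnaq, Adcy3, Adcy6, Adcy9 and Prkar1a, did not pass an adjusted p of 0.05, and Creb1 had too few reads to be tested. Of the 9 tested genes 4 (44.4%) thus passed, beside 27.0% of all genes tested. The 3 that were higher stand beside 15.3% of all genes and the 1 that was lower beside 11.7%. Pde4d alone also changed more than 2-fold, which 5.44% of all genes did. For 5 of the 9 genes the NP and LP samples did not overlap, as for 40.1% of all genes. The median log2 fold change of the 9 genes was 0.067, and that of all genes tested was −0.0091. Without adjustment, 5 of the genes had a p-value under 0.05 with edgeR and 4 with DESeq2. The share of all genes under this unadjusted threshold was not worked out, so these counts have no background to stand beside.

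**Figure D2:**
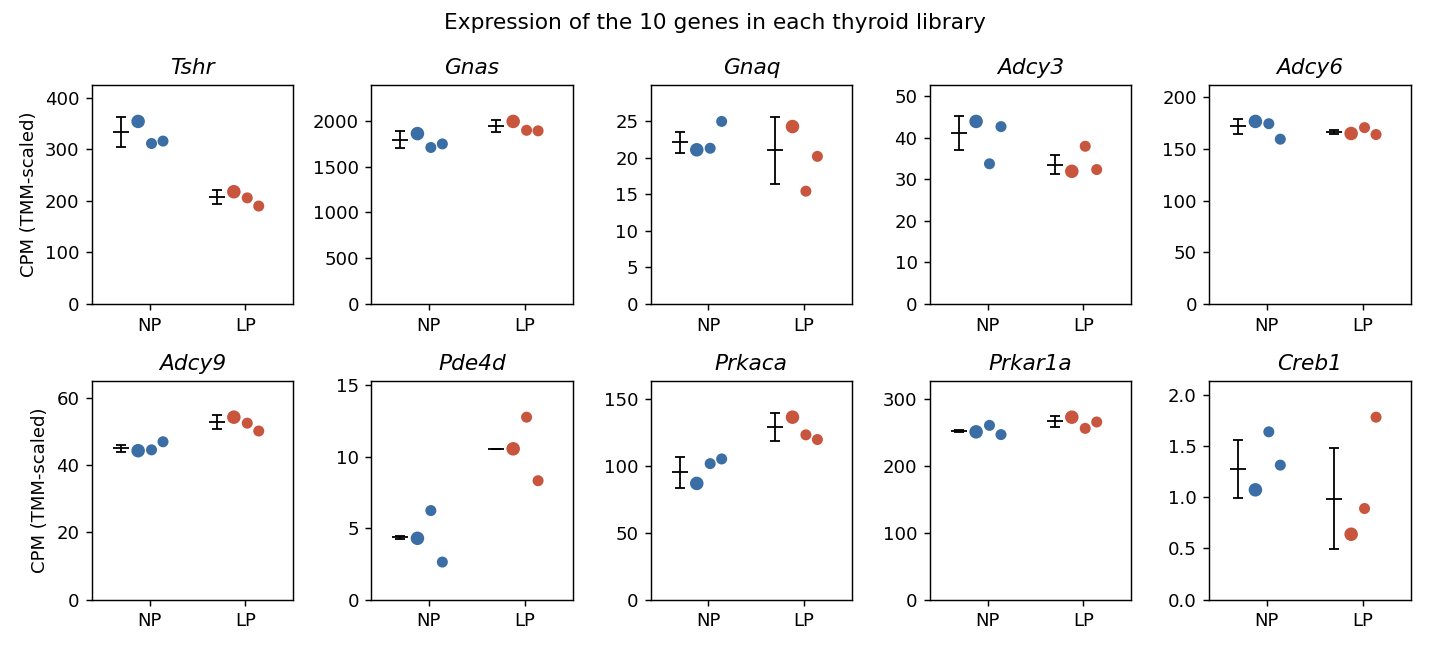
CPM of each of the 10 genes (linear vertical axis from 0, with its own scale for each gene) in NP (blue) and LP (red), with 1 point per sample, the larger point being replicate 1. The bar beside each group is the mean ± SD after replicates 2 and 3 were averaged (n = 2). Every LP sample lies below every NP sample for Tshr and above for Gnas, Adcy9, Pde4d and Prkaca.

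**Figure D3:**
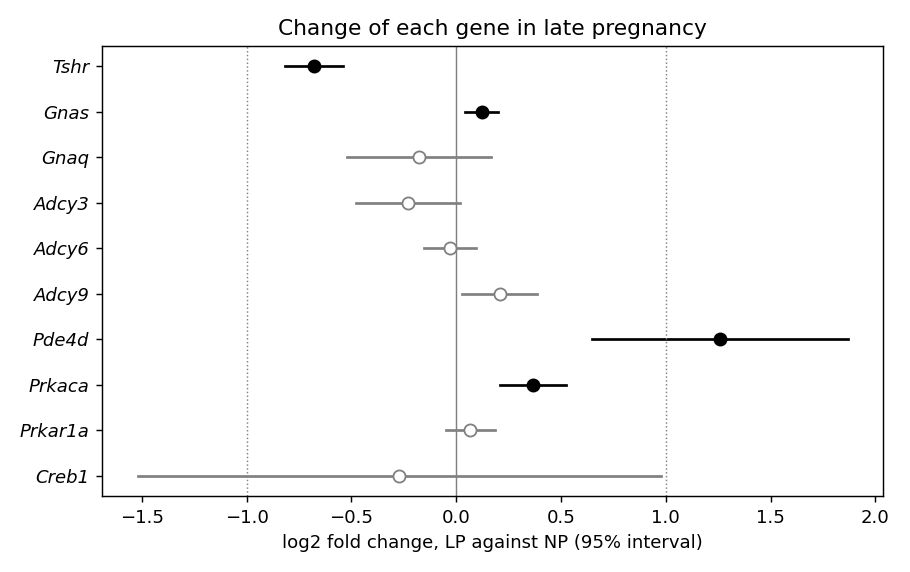
Log2 fold change of LP against NP for each gene with its 95% interval. Filled points passed an adjusted p of 0.05, open points did not, and dotted lines mark 2-fold. Tshr lies at −0.68 and Pde4d at 1.26, while the widest interval is that of Creb1, which was fitted without the filter on low counts.

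Tshr (ENSRNOT00000005671) encodes the only one of these proteins that meets the hormone itself. Its level was 353.7, 310.9 and 315.6 CPM in NP replicates 1, 2 and 3, and 217.4, 205.5 and 189.7 CPM in LP replicates 1, 2 and 3. All LP samples were thus below all NP samples, with a gap wider than the spread within either group. Mean levels were 333.5 ± 28.6 CPM in NP and 207.5 ± 14.02 CPM in LP (SD, n = 2). The log2 fold change was −0.68 (SE 0.066, 95% interval −0.82 to −0.54), a level 1.60-fold lower in LP, with an adjusted p of 3.9e-07 in edgeR's test. Of the 11738 genes tested, 212 (1.81%) had a more negative log2 fold change. The fall was of similar size in replicate 1 (−0.70) and in replicates 2 and 3 combined (−0.66). Such splits, here and for the genes below, match NP and LP by replicate number, which is not known to pair animals. Over 17 alternative ways of processing the log2 fold change of Tshr ranged from −0.75 to −0.62, with an adjusted p of at most 0.00011.

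In a whole tissue, fewer follicular cells and less receptor RNA in each cell cannot be told apart. Among the 12 follicular cell markers, 2 were up-regulated, 5 were down-regulated and 5 passed neither way, with a median log2 fold change of −0.074. That is 58.3% called, beside 27.0% of all genes tested. Tg, which encodes thyroglobulin and has the most reads of any marker, lay at 0.062 on the log2 scale. Pax8, a transcription factor of the follicular lineage, lay at −0.062. The 5 down-regulated markers were Slc5a5, which encodes the sodium iodide symporter (−0.94), Krt18 (−0.53), Krt8 (−0.29), Hhex (−0.26) and Epcam (−0.20). The 2 up-regulated markers were Nkx2-1 (0.28) and Duox2 (0.29). Of the 12 markers only Slc5a5 had a change larger in size than that of Tshr. The difference between Tshr and these genes was not tested.

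Genes whose levels followed Tshr most closely were sought among the 7916 other genes with a mean of at least 50 reads and a read in every sample, by the root mean square difference of log2 CPM centred over the 6 samples. The 5 nearest were Magt1 (0.044), Cited1 (0.050), Mgp (0.051), Hsp90b1 (0.052) and Clic3 (0.053). Their own log2 fold changes ran from −0.69 for Cited1, Mgp and Hsp90b1 to −0.60 for Clic3. The measure rests on 6 samples that share the NP and LP grouping, and is given as a description.

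Gnas (ENSRNOT00000035916) encodes the stimulatory alpha subunit that links the receptor to adenylyl cyclase, and changed little. NP replicates 1, 2 and 3 had 1863, 1711 and 1750 CPM, and LP replicates 1, 2 and 3 had 1996, 1899 and 1893 CPM. All LP samples were above all NP samples, but the lowest LP sample was close to the highest NP sample. The means were 1797 ± 93.7 CPM in NP and 1946 ± 70.6 CPM in LP (SD, n = 2), and the log2 fold change was 0.12 (SE 0.037, 95% interval 0.042 to 0.20, edgeR adjusted p = 0.0234). This call was lost when single libraries were left out, which also leaves fewer samples. The adjusted p was 0.145 without NP replicate 2, 0.108 without NP replicate 3 and 0.107 without LP replicate 1. The log2 fold change in these fits was 0.088, 0.104 and 0.088. The call was also lost when libraries were scaled to their totals alone (log2 fold change 0.049, adjusted p = 0.296) and when replicates 2 and 3 were summed (adjusted p = 0.148). The locus has alternative first exons and an antisense transcript, which counts without strand do not separate.

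Gnaq (ENSRNOT00000019174) encodes the alpha subunit that activates phospholipase C. It had 21.1, 21.3 and 25.0 CPM in NP replicates 1, 2 and 3 and 24.3, 15.4 and 20.2 CPM in LP replicates 1, 2 and 3. The groups overlapped, and LP replicate 2 was the lowest of all 6 samples. The log2 fold change was −0.18 with a 95% interval of −0.52 to 0.16 (adjusted p = 0.473), and it was 0.20 in replicate 1 and −0.38 in replicates 2 and 3 combined.

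None of the 3 adenylyl cyclases passed the test. For Adcy6 (ENSRNOT00000088323), a cyclase that calcium inhibits, the 3 NP samples had 176.8, 174.6 and 159.6 CPM and the 3 LP samples had 165.1, 170.8 and 164.1 CPM. The groups overlapped in full, and the log2 fold change of −0.031 had a 95% interval of −0.16 to 0.094 (adjusted p = 0.758). This interval is narrow enough to leave out a change as large as that of Tshr.

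Adcy3 (ENSRNOT00000005389), a cyclase best known from olfactory neurons, gave 43.9, 33.7 and 42.7 CPM in NP replicates 1, 2 and 3 and 31.9, 38.0 and 32.4 CPM in LP replicates 1, 2 and 3. NP replicate 2 and LP replicate 2 crossed over, so the groups overlapped. The log2 fold change was −0.23 (95% interval −0.48 to 0.020, adjusted p = 0.173). Without NP replicate 2 it was −0.35 with an adjusted p of 0.0383, so this library decided the call.

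Adcy9 (ENSRNOT00000076022), a widely expressed cyclase, stood at 44.3, 44.6 and 47.0 CPM in the NP samples and at 54.3, 52.5 and 50.2 CPM in the LP samples. Here every LP sample was above every NP sample. The means were 45.03 ± 1.03 CPM and 52.8 ± 2.08 CPM (SD, n = 2), with a log2 fold change of 0.21 (SE 0.084, 95% interval 0.029 to 0.38). The unadjusted p was 0.031 and the adjusted p 0.0943 by edgeR, and the adjusted p was 0.0644 or more under all 17 alternatives.

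Pde4d (ENSRNOT00000015138), which encodes a phosphodiesterase specific for cAMP, had the largest change of the 9 tested genes and also the fewest reads. In NP replicates 1, 2 and 3 it was read 12, 19 and 8 times (4.29, 6.22 and 2.63 CPM), and in LP replicates 1, 2 and 3 it was read 33, 43 and 28 times (10.5, 12.8 and 8.31 CPM). The lowest LP sample was above the highest NP sample. Averaging replicates 2 and 3 gave 4.36 ± 0.098 CPM in NP and 10.5 ± 0.0029 CPM in LP (SD, n = 2), SDs that understate the spread between the single libraries. The log2 fold change was 1.26 (SE 0.29, 95% interval 0.65 to 1.87), a level 2.39-fold higher in LP (edgeR adjusted p = 0.00327).

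The rise in Pde4d was 1.30 in replicate 1 and 1.25 in replicates 2 and 3 combined, on the log2 scale. It ranged from 0.98 to 1.60 over the 16 alternatives in which the gene could be tested, with an adjusted p of at most 0.0264. The summed reads were 39 in NP and 104 in LP. Scaled to library totals after adjustment by TMM, their ratio was 2.4 with a 95% interval of 1.65 to 3.57, which covers counting error only. The skeletal muscle markers rose in the same samples, from at most 75.9 CPM in NP to at least 3633 CPM in LP, and their part in the change of Pde4d was not tested.

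Prkaca (ENSRNOT00000041717) encodes the catalytic subunit alpha of protein kinase A and was up-regulated. Levels in NP replicates 1, 2 and 3 were 86.8, 101.6 and 105.1 CPM, and in LP replicates 1, 2 and 3 they were 136.3, 123.1 and 119.6 CPM. The groups did not overlap, and replicate 1 was the lowest of NP and the highest of LP. The means were 95.1 ± 11.7 CPM and 128.8 ± 10.6 CPM (SD, n = 2), a log2 fold change of 0.36 (SE 0.075, 95% interval 0.21 to 0.52, edgeR adjusted p = 0.00126). The change was 0.65 in replicate 1 and 0.23 in replicates 2 and 3 combined. Over the 17 alternatives it ranged from 0.29 to 0.41, with an adjusted p of at most 0.00966. As for Pde4d, the part of the skeletal muscle markers was not tested.

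Prkar1a (ENSRNOT00000071153) encodes the regulatory subunit I alpha, which holds the catalytic subunits inactive until cAMP binds. Its levels lay close together, at 250.4, 260.1 and 246.3 CPM in the NP samples and 272.3, 255.6 and 265.1 CPM in the LP samples. The groups overlapped, since LP replicate 2 lay below NP replicate 2. The log2 fold change of 0.067 had a 95% interval of −0.048 to 0.18 (adjusted p = 0.413). Whether Prkaca and Prkar1a differed in their change was not tested.

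Creb1 (ENSRNOT00000018326) had a row close to the limit of detection. It was read 3, 5 and 4 times in NP replicates 1, 2 and 3 and 2, 3 and 6 times in LP replicates 1, 2 and 3, where 3 reads correspond to 0.890 to 1.07 CPM. In a fit of all 15388 genes the log2 fold change of Creb1 was −0.27, with a 95% interval of −1.52 to 0.98 (adjusted p = 0.822). The summed reads, 12 in NP and 11 in LP, gave a ratio of 0.826 (95% interval 0.33 to 2.04, counting error only). This interval holds both a 2-fold rise and a 2-fold fall, and reaches further on the side of a fall. The transcript identifier behind the row is single, and how it was chosen for the gene is not given in the sources used here, so whether these reads stand for the whole gene is not known.

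CREB proteins bind the cAMP response element, and the sequence before the start site of 7 of the 10 genes was found in the promoter table of RefSeq (assembly GRCr8). Tshr, Adcy3 and Adcy6 had no window there, so nothing below covers them. These genes had 14 windows of 300 bases, from 250 before to 50 after a start site. The full element, TGACGTCA, was in 0 of the 14 windows and in 1.83% of all 33469 windows of the table. The core TGACG, searched on both strands and contained in the full element, was in 7 of the 14 windows, from 6 genes, and in 21.2% of all windows. Window 1 of the 2 of Creb1 held it most often, at 3 places, and is not shown. The 250 bases before the start are shown for the 2 up-regulated genes that held the core at 2 places, Prkaca and window 3 of the 5 of Pde4d, each on the strand of its gene with the core or its reverse CGTCA in capitals.
Prkaca, chr19:41083190-41083439, minus strand: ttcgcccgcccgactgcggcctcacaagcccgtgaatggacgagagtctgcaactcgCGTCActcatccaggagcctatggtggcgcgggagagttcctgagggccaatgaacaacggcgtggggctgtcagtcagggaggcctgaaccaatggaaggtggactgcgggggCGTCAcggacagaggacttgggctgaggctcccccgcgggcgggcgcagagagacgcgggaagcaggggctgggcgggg
Pde4d, chr2:42592499-42592748, plus strand: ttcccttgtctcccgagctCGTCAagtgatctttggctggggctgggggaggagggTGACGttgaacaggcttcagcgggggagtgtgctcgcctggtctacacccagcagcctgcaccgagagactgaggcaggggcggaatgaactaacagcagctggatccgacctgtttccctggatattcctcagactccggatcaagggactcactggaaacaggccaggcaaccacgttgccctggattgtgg
The counts do not show which start site was used, so a match describes the letters of a window and not a working site.

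The remaining genes of the pathway were read from lists of its known parts. Of 138 listed genes 127 were in the files and 113 could be tested, of which 20 were up-regulated and 16 were down-regulated (31.9%, beside 27.0% of all genes tested). Their median log2 fold change was 0.040, and 5 of them changed more than 2-fold. With libraries scaled to their totals alone, which moved the median of the genes tested by −0.072, the split became 17 up and 28 down, and for all genes the share of calls that were higher went from 56.6% to 40.4%. With DESeq2 in place of edgeR 17 of the list genes passed, 11 higher and 6 lower, and with replicates 2 and 3 summed 28 passed. The counts for each list below stand beside 15.3% higher and 11.7% lower over all genes tested.

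**Figure D4:**
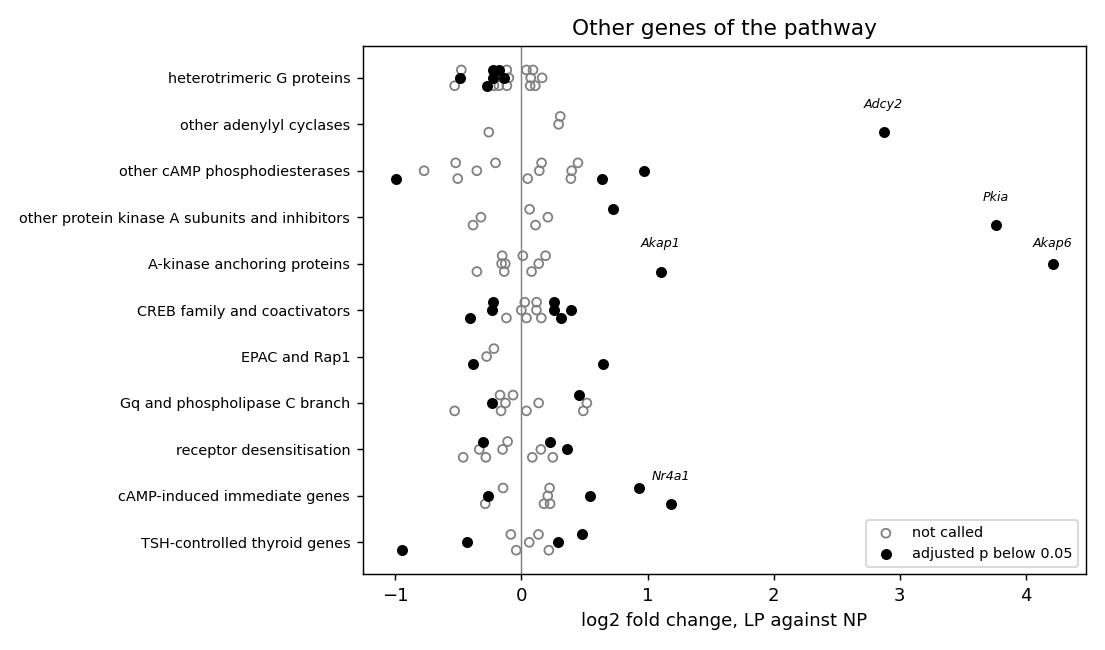
Log2 fold change of LP against NP for the tested genes of each pathway list, 1 point per gene, filled where the adjusted p was below 0.05. Akap6 (4.21), Pkia (3.76) and Adcy2 (2.87) lie far above the rest, and the filled points of the G protein list, which does not hold Gnas and Gnaq, all lie below 0.

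Among 20 tested genes of the heterotrimeric G proteins other than Gnas and Gnaq, 6 (30%, beside 27.0% of all genes) were down-regulated and 0 were up-regulated by edgeR, with a median of −0.16. At an unadjusted p under 0.05, 8 were lower and 0 higher with edgeR, and 7 lower and 0 higher with DESeq2. The share of all genes under that unadjusted threshold was not worked out. Gnas itself was up-regulated. Gng7, a gamma subunit, fell from 271.5, 260.1 and 265 CPM in NP to 197, 188.3 and 183.4 CPM in LP (log2 fold change −0.49, SE 0.056, edgeR adjusted p = 3.02e-06). Gnai2 and Gnai3, alpha subunits that inhibit adenylyl cyclase, were lower by a small amount, at −0.13 (adjusted p = 0.0475) and −0.22 (adjusted p = 0.0176), as was Ric8a, a chaperone of alpha subunits, at −0.23 (adjusted p = 0.0184). Of these 4, Gng7 kept its call under every alternative and was the only one called by DESeq2. Gnai2 was not called without NP replicate 1 (0.0979), NP replicate 3 (0.105), LP replicate 2 (0.0821) or LP replicate 3 (0.179). Gnai3 was not called without NP replicate 2 (0.056), NP replicate 3 (0.067) or LP replicate 2 (0.0804), nor Ric8a without NP replicate 1 (0.0669) or LP replicate 1 (0.0516). The number of down-regulated G protein genes was 2 without NP replicate 1, 3 without NP replicate 3, LP replicate 1 or LP replicate 2, 4 without NP replicate 2 or LP replicate 3, and 1 with DESeq2.

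Of the 4 other adenylyl cyclases tested, Adcy2 was up-regulated, from 13, 16 and 9 reads in NP to 96, 109 and 106 reads in LP (log2 fold change 2.87, SE 0.19, edgeR adjusted p = 2e-09). Among 14 other phosphodiesterases 2 were higher and 1 was lower (21.4% called). Pde4a and Pde4b, of the same family as Pde4d, rose by 0.64 (SE 0.12, adjusted p = 0.000467) and 0.97 (SE 0.25, adjusted p = 0.00676). Pde4c, named after its value was seen because it completes that family, lay at 0.39 (adjusted p = 0.30). DESeq2 did not call Pde4b (adjusted p = 0.0873). Pde3a, which cGMP inhibits, was lower by 1.00 from 18, 20 and 18 reads to 7, 12 and 12 reads (adjusted p = 0.0173), but not without NP replicate 2 (0.0602), without LP replicate 1 (0.0715) or with DESeq2 (0.186).

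Among 7 other protein kinase A subunits and inhibitors 2 were up-regulated. Pkia, which encodes an inhibitor of the free catalytic subunit, went from 10, 9 and 10 reads in NP to 150, 154 and 137 reads in LP (log2 fold change 3.76, SE 0.18, edgeR adjusted p = 2e-11). Prkar2a, regulatory subunit II alpha, rose by 0.73 (SE 0.091, adjusted p = 7.71e-06), while Pkig, the inhibitor with the most reads of the list, lay at 0.065 (adjusted p = 0.649). Of 11 A-kinase anchoring proteins, which tether the kinase at sites in the cell, 2 were higher. Akap6, an anchor known from muscle, went from 1, 3 and 5 reads to 56, 63 and 73 reads (4.21, SE 0.31, adjusted p = 1.2e-08), and Akap1, an anchor of mitochondria, rose by 1.11 (SE 0.090, adjusted p = 4.2e-08). Akap8 was not called (−0.15, adjusted p = 0.0906), but was with the replicate number as a block (adjusted p = 0.049), a fit that called 4 genes of this list in place of 2. Adcy2, Pkia and Akap6, the genes of these lists with the largest changes, rose in the same samples as the skeletal muscle markers, and the part of those markers was not tested.

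The CREB family and its coactivators had 4 genes higher and 3 lower of 14 tested, or 2 higher and 1 lower with DESeq2. Crem, which encodes activators and repressors that bind the cAMP response element, fell from 67.9, 71.4 and 65.0 CPM in NP to 54.3, 48.9 and 51.1 CPM in LP (log2 fold change −0.41, SE 0.077, edgeR adjusted p = 0.00067). Sik1 and Sik3, kinases that keep CREB coactivators out of the nucleus, rose by 0.26 (adjusted p = 0.00624) and 0.31 (adjusted p = 0.00398), and the coactivator gene Crtc1 by 0.39 (adjusted p = 0.0398). Sik1 was not called without NP replicate 2 (0.0617), and Crtc1 was called without NP replicate 1 but not without any other single library (0.0692 to 0.176), nor with DESeq2 (0.316). Of the EPAC and Rap1 genes, which carry the part of the cAMP signal that bypasses protein kinase A, Rapgef3 fell by 0.38 (adjusted p = 7.09e-05) and Rapgef4 rose by 0.64 (adjusted p = 0.018), of 4 tested. Rapgef4 was not called without NP replicate 2 (0.053), NP replicate 3 (0.0874) or LP replicate 3 (0.114), nor with DESeq2 (0.14).

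Of 11 genes of the Gq and phospholipase C branch, Prkcd, a protein kinase C, was higher (0.45, edgeR adjusted p = 0.00978) and Plcb3, a phospholipase C, was lower (−0.23, adjusted p = 0.0365). Prkcd was not called without NP replicate 3 (0.0663) or LP replicate 3 (0.0604), and Plcb3 not without NP replicate 1 (0.114), NP replicate 2 (0.0783), LP replicate 1 (0.131) or LP replicate 3 (0.0603), and DESeq2 called neither (0.102 and 0.205). Itpr3, a receptor for inositol trisphosphate, lay at 0.14 (adjusted p = 0.0989), and with the replicate number as a block it was called (0.00579) and the list had 5 calls in place of 2. Among 11 genes of receptor desensitisation, Grk5, a receptor kinase, was lower (−0.31, adjusted p = 0.00875), and Rgs3, which speeds the switching off of alpha subunits, and the receptor kinase gene Adrbk1 were higher (0.36, adjusted p = 0.00975, and 0.23, adjusted p = 0.037). Neither Rgs3 nor Adrbk1 was called without NP replicate 3 (0.057 and 0.111) or LP replicate 3 (0.0572 and 0.053), and Adrbk1 also not without NP replicate 2 (0.168), LP replicate 1 (0.199) or LP replicate 2 (0.0531). With DESeq2 the adjusted p was 0.0669 for Grk5, 0.143 for Rgs3 and 0.338 for Adrbk1. Of the other glycoprotein hormone receptors and their ligand subunits Gpha2 was counted, with at most 2 reads per sample.

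Genes that cAMP is known to switch on within hours were up-regulated in 3 of 10 cases and down-regulated in 1 (2 and 2 with library totals alone), that is 40% called beside 27.0% of all genes tested. Nr4a1, an orphan nuclear receptor, went from 67, 76 and 86 reads to 178, 203 and 199 reads (log2 fold change 1.19, SE 0.097, edgeR adjusted p = 4.11e-08). Dusp1, a phosphatase that switches off MAP kinases, rose by 0.93 (SE 0.077, adjusted p = 5.01e-08), and Per1, a clock gene, fell by 0.27 (SE 0.058, adjusted p = 0.00192). Ppargc1a, a coactivator of mitochondrial genes, rose by 0.54 (adjusted p = 0.0309), but was not called without NP replicate 3 (0.141), LP replicate 1 (0.109) or LP replicate 2 (0.0799), nor with DESeq2 (0.243). Among the 6 not called were Fos (0.21, edgeR adjusted p = 0.692), Egr1 (0.22, adjusted p = 0.215) and Nr4a2 (−0.29, adjusted p = 0.0614). Nr4a1, Dusp1 and Ppargc1a rose in the same samples as the skeletal muscle markers, and the part of those markers was not tested.

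Thyroid genes that TSH is known to control split in direction, with 2 up-regulated, 2 down-regulated and 5 not called of 9 tested (2 and 4 with library totals alone). Slc5a5 fell from 338, 352.8 and 337.6 CPM in NP to 180.7, 178.5 and 175.4 CPM in LP (log2 fold change −0.94, SE 0.054, edgeR adjusted p = 3.06e-10). Dio1, the type 1 deiodinase, fell from 470.2, 439.3 and 434.1 CPM to 355.3, 332.1 and 307.2 CPM (−0.43, SE 0.059, adjusted p = 2.13e-05). For both genes every LP sample was below every NP sample, as for Tshr.

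The genes of hydrogen peroxide production went the other way or did not pass. Duoxa2, a maturation factor for the dual oxidases, rose by 0.48 (SE 0.099, adjusted p = 0.00141) and Duox2 by 0.29 (SE 0.078, adjusted p = 0.00946), although Duox2 was not called without LP replicate 1 (0.0625) or with DESeq2 (0.163). Duox1 lay at 0.22 (adjusted p = 0.108) and Duoxa1 at 0.14 (adjusted p = 0.325). Tg and Iyd, the iodotyrosine deiodinase, lay at 0.062 (adjusted p = 0.0594) and −0.084 (adjusted p = 0.343). With the replicate number as a block Tg was called (edgeR adjusted p = 2.2e-42) at almost the same fold change. DESeq2 without the block did not call Tg (adjusted p = 0.649). The numbers are not known to pair animals, and replicates 2 and 3 of a group agreed within sampling noise. The p with the block therefore need not measure variation between animals. Slc26a4, which encodes pendrin, and Dio2 were below the filter, with at most 3 and 4 reads in a sample.

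**Figure D5:**
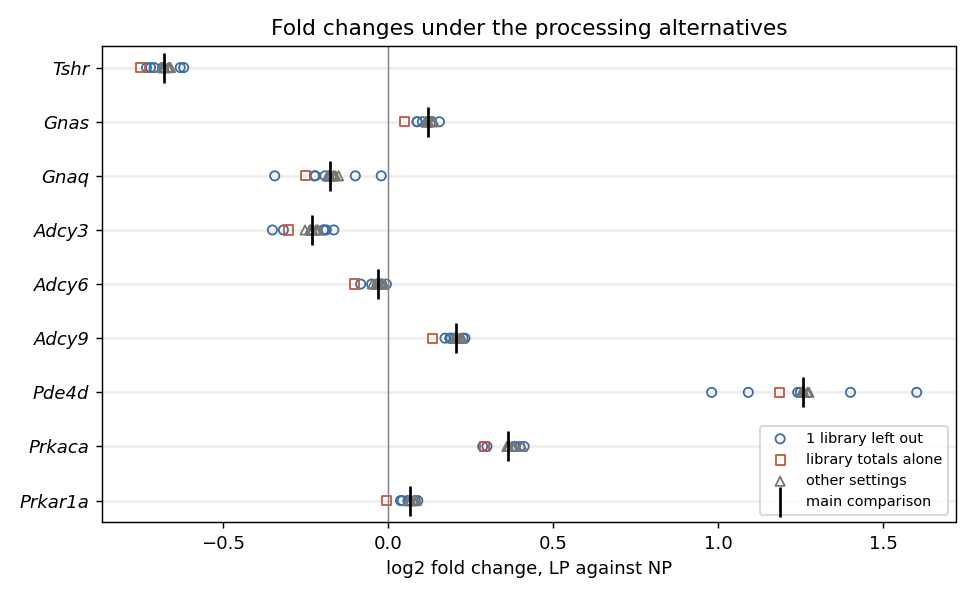
Log2 fold change of LP against NP for the 9 tested genes under each of the 17 alternatives, with the main value as a vertical tick. Tshr stays between −0.75 and −0.62 and Prkaca between 0.29 and 0.41, while Pde4d spreads from 0.98 to 1.60 and Prkar1a reaches −0.0049 with library totals alone.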

How the data were processed

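RNA-seq of 3 NP and 3 LP thyroid samples was used. Per the study's methods and its processing notes, the authors mapped reads to rn5 with TopHat 1.4.0, counted them per gene with HTSeq-count on Ensembl release 81, and tested them with DESeq. The deposited values are raw read counts, 1 file per sample, not normalized, for 15388 genes.

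The software was R 4.3.3, edgeR 4.0.16 (glmQLFit and glmQLFTest, TMM, filterByExpr, no block, Benjamini-Hochberg over 11738 genes, call at an adjusted p below 0.05), DESeq2 1.42.0 and limma 3.58.1. Standard errors come from the size of the log2 fold change over the square root of F. Marker sums were compared by a two-sided exact permutation test, whose smallest p is 0.1 with 3 samples against 3. The 10 genes and the gene lists were chosen with earlier results of these data known. Named genes are the 10, the 3 largest called changes with non-overlapping groups and the most read gene of each pathway list, all TSH-controlled genes, the most read gene of each marker list and the 5 genes nearest to Tshr, of which some are not reported here.

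Same-numbered samples deviated together (r across genes 0.483, 0.216 and 0.183), but crossing replicates 2 and 3 gave as much (0.207 and 0.209). The edgeR and DESeq2 steps were tested on simulated counts. Alternatives tried were a block for replicate number, each sample left out, other filters, scalings, thresholds and tests, and replicates 2 and 3 summed. The depth was 2752144 to 3449857 reads per sample, where 3 reads are 0.890 to 1.07 CPM; intervals of counts cover counting error only.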

Additional observations from a re-analysis of the deposited data

How the results depend on the processing

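Tshr kept its direction and its call under all 17 alternatives, and Prkaca and Pde4d wherever they could be tested. Of 154 values of the 10 genes under alternatives, 146 kept direction and call, 6 lost the call (all Gnas), 1 gained it (Adcy3 without NP replicate 2) and 1 changed sign (Prkar1a, −0.0049 with library totals alone). The number of the genes called was 3 or 4 throughout. Pairing by replicate number as a block left Tshr at −0.68 and changed no call among the 10 genes; of the other genes reported it changed those of Akap8, Itpr3, Tg, Gcm2, C1qa and Col3a1. With the block 3784 genes passed in place of 3172, and 47 pathway list genes in place of 36. DESeq2 called 1843 genes and 17 pathway list genes, and a threshold of 0.01 called 2112 genes. A mean of at least 50 reads left 315 genes past 2-fold in place of 638, since fewer genes were tested and Pde4d was not among them. Leaving out 1 sample at a time gave 2586 to 2888 genes, 646 to 693 past 2-fold and 29 to 33 list genes, and Tshr between −0.73 and −0.62. Of 763 values of 48 other genes (those chosen from the pathway lists, Pde4c and the 5 nearest to Tshr) 663 kept direction and call, and 3 changed sign without passing in either case: Pkig without LP replicate 2 (−0.0022, with 0.12 at most when another sample was left out) and with library totals alone (−0.0068), and Tg with library totals alone (−0.0093). Of the 31 pathway list genes named as called, 16 kept the call under every alternative and 15 lost it under at least 1. Depth limits the row of Creb1, with 2 to 6 reads per sample, and widens the interval of Pde4d, with 8 to 43.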

Other observations

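Markers of other cell types in the gland also differed between the groups. Calca, the calcitonin gene and the most read of the C cell markers, was lower in LP (log2 fold change −0.32, edgeR adjusted p = 3.34e-08), and the summed C cell level went from 13810 to 14780 CPM in NP to 12220 to 12970 CPM in LP. Pth, which encodes parathyroid hormone, was lower by a similar amount (−0.30, adjusted p = 3.19e-06), and makes up most of the parathyroid sum, while Casr and Gcm2 of that list lay at 0.096 (adjusted p = 0.288) and 0.18 (adjusted p = 0.084). Of the other C cell markers Chga lay at −0.011 (adjusted p = 0.836) and Scg2 rose by 0.42 (adjusted p = 0.00581), but DESeq2 did not call Scg2 (adjusted p = 0.0985). Kdr, an endothelial receptor for VEGF, was lower too (−0.31, adjusted p = 0.00129), and 3 of 5 tested endothelial markers were down-regulated, beside 11.7% of all genes tested. Mbp, which encodes a myelin protein, rose by 0.55 (adjusted p = 0.00411), and Bpifa1, a secretory protein of the airway, by 2.38 (adjusted p = 4.98e-05) from at most 6 reads in an NP sample. The summed levels of C cell, parathyroid, endothelial, Schwann cell, airway and skeletal muscle markers did not overlap between the groups (exact permutation p = 0.1, the smallest that 3 against 3 allows). Adipocyte, leukocyte, fibroblast and smooth muscle sums overlapped (exact permutation p = 0.6, 0.2, 0.5 and 0.3), led by Adipoq (0.19, edgeR adjusted p = 0.383), C1qa (0.33, adjusted p = 0.0589), Col3a1 (0.20, adjusted p = 0.357) and Myh11 (−0.05, adjusted p = 0.962). Within these lists Des, an intermediate filament gene that skeletal muscle shares, rose by 3.08 (adjusted p = 8.1e-07) and Dcn fell by 0.20 (adjusted p = 0.0468). The NP and LP samples overlapped for Dcn, and DESeq2 did not call it (adjusted p = 0.0652). Its call was also lost without NP replicate 2, NP replicate 3, LP replicate 1 or LP replicate 3, and with replicates 2 and 3 summed. With the replicate number as a block Gcm2 (edgeR adjusted p = 0.0463), C1qa (0.00748) and Col3a1 (3.28e-13) were called too. DESeq2 without the block called none of them (adjusted p = 0.447, 0.266 and 0.826). The most read skeletal muscle marker, Tnnc2, went from 22, 14 and 26 reads to 4554, 4532 and 4641 reads.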
